A study of Mus musculus with 6 samples.

Results

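Genes for cell adhesion molecules, cell junctions and keratins were compared in inguinal fat between mice that gained much weight and mice that gained little. The group was chosen by gene symbol and held the cadherins with Cdh symbols, protocadherins, alpha-catenins, desmosome proteins, claudins and other tight junction proteins, nectins, connexins, integrins and keratins. It comprised 158 of the 13840 genes that the array annotation named with a single symbol. Another 9 genes with matching symbols, which mark glandular epithelium or endothelium, were left out by the rule (Cdh1, Cdh5, Cldn3, Cldn4, Cldn5, Krt7, Krt8, Krt18 and Pkp2) and appear here in marker lists. Of the 158 genes, 48 had a value on all 6 arrays, 58 on 1 to 5 arrays and 52 on none. The symbol rule also took in Itgb1bp1, Itgb1bp2, Itgb3bp and Itgbl1, which are named for integrins but are not integrin subunits.

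The mice were male C57BL/6J, an inbred strain, housed singly by the time the diet began and given the high saturated fat diet D12331 from 8 weeks of age for 4 weeks. RNA from the inguinal depot, a subcutaneous fat pad, was combined from 8 high gainers into 1 pool and from 8 low gainers into a second, and 3 arrays were run with each. All mice of both pools ate the same diet, and no mice on a standard diet entered the comparison. The 3 arrays of a pool repeat 1 RNA pool, so that n counts arrays and the p-values measure the spread between arrays and not between mice.

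Of 33012 probes, 18018 to 20605 had a value on an array, and the precision is limited by how few arrays there are. The correlation was r = 0.988 to 0.994 within a pool and r = 0.972 to 0.980 between the pools. Adipocyte markers were bright on every array, with a signal summed over 8 of them of 4.29e+06 to 4.47e+06 in high gainers and 3.67e+06 to 3.97e+06 in low gainers. Among them Lep averaged 898920 in high gainers and 504731 in low gainers, whereas Cidec averaged 221738 and 274687. Probes of different genes are not on a common scale, so that these sums do not measure adipocyte content. Signals are normalized intensities on a linear scale, and ratios are given as log2 of high over low gainers, so that a positive value is a higher level in high gainers. A gene was called where limma gave a Benjamini-Hochberg adjusted p under 0.01 over all tested probes and the fold was at least 1.5. A gene is described as dim where its mean lay in the lowest 33.3% of the tested probes.

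Cells hold on to each other and to the matrix around them through a small number of protein families. Cadherins bind cadherins of a neighboring cell and are tied to actin through catenins, desmosomes join the keratin filaments of neighboring epithelial cells, and claudins and junctional adhesion molecules seal tight junctions. Connexins form gap junction channels, nectins start new contacts, and integrins, each a pair of an alpha and a beta chain, bind matrix or counter-receptors. Fat contains few epithelial cells, and the vessels, nerves, stroma, lymphoid tissue and ducts within a depot carry their own sets of these proteins.

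Among the 48 measured genes, 3 were over-expressed in high gainers (Jam2, Itgb5 and Krt79) and 4 were over-expressed in low gainers (Itgal, Pkp3, Jaml and Itgb7). The background for these counts was 2.91% of 8596 named genes called higher in high gainers and 4.04% called lower, against 6.25% and 8.33% of the 48. The median log2 ratio of the 48 was 0.25, with 38 above 0, beside 0.04 for all named genes tested, of which 56.6% were above 0. The arrays of the pools did not overlap for 20 of the 48 in the direction of high gainers and for 7 in the direction of low gainers. For all named genes, 22% did not overlap with high gainers above and 15.9% with low gainers above. At an unadjusted p under 0.05 limma gave 19 higher and 7 lower, and 22 of the 48 were dim. The share of all named genes at that unadjusted p was not computed. The counts at this p, here and below for families and lists, therefore stand without a background. For counts of called genes in the families and lists below, the background is again 2.91% called higher and 4.04% called lower.

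**Figure D1:**
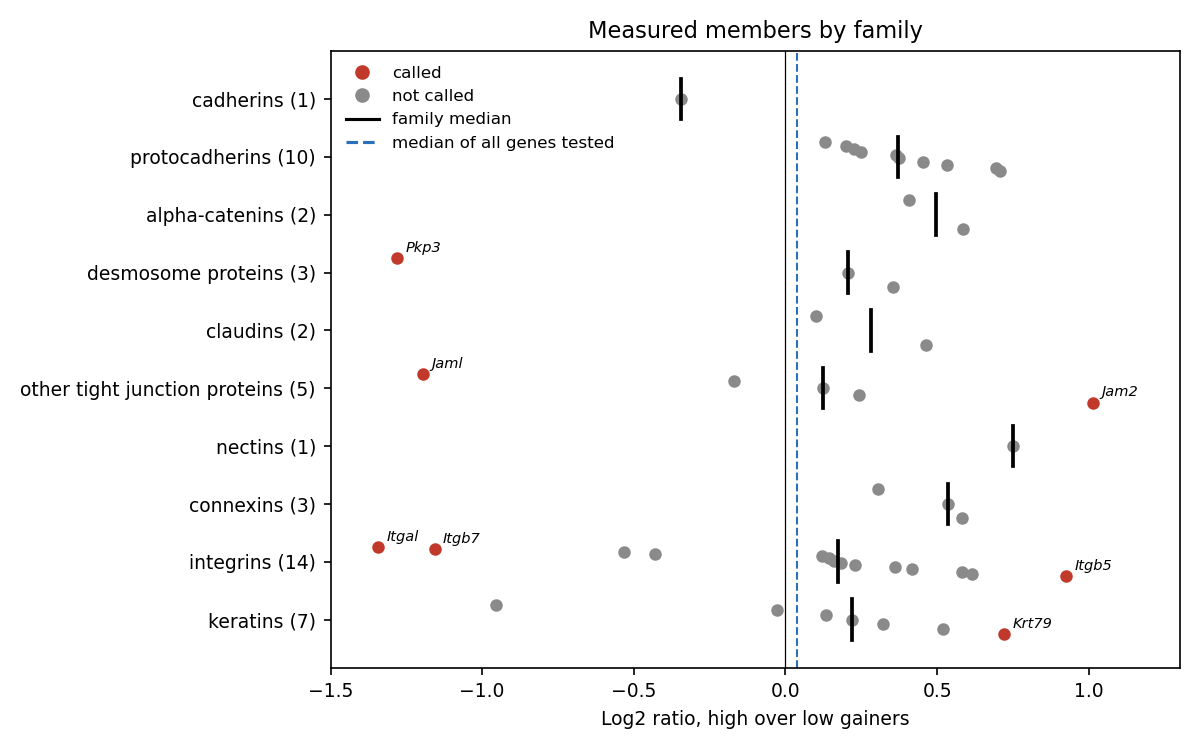
The log2 ratio of high over low gainers (horizontal axis) is plotted for each of the 48 genes with a value on all 6 arrays, by family, with the number measured in parentheses. Black bars are family medians, the dashed line is the median of all named genes tested, 0.04, and the 7 called genes are red. The 10 protocadherins lie between 0.13 and 0.71, and the 14 integrin symbols spread from -1.34 to 0.93.

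The stretches just before the start of 4 of the 7 called genes are printed because they are the only called genes with a promoter window among the RefSeq sequences used here, with Itgb7 and Jaml lower and Itgb5 and Krt79 higher in high gainers. Each holds the 250 bases before the start in GRCm38.p6, 5′ to 3′ on the strand of the gene. Itgb7 lies at chr15:102231936-102232185 on the minus strand, Jaml at chr9:45078933-45079182 on the plus strand, Itgb5 at chr16:33829415-33829664 on the plus strand and Krt79 at chr15:101940325-101940574 on the minus strand. Capitals mark matches to 6 motifs that were searched on both strands, namely the TATA box spelled TATAAA, the GC box spelled GGGCGG, the core of RUNX sites spelled TGTGGT, an ETS site spelled AGGAAG, an E-box spelled CAGGTG and the AP-2 site spelled GCCNNNGGC.
Itgb7: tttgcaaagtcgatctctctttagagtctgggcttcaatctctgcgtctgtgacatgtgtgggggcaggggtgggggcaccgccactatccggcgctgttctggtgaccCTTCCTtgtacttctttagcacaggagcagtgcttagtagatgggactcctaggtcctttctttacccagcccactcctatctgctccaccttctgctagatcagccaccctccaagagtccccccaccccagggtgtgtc
Jaml: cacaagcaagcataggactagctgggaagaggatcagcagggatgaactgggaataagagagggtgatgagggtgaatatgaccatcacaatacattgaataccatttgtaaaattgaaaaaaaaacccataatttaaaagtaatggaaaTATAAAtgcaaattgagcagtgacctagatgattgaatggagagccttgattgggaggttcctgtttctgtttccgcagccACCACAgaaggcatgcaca
Itgb5: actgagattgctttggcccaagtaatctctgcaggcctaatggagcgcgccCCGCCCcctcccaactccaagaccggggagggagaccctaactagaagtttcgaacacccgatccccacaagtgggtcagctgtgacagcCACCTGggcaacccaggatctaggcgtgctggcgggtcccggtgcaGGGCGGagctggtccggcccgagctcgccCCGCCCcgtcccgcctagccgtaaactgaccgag
Krt79: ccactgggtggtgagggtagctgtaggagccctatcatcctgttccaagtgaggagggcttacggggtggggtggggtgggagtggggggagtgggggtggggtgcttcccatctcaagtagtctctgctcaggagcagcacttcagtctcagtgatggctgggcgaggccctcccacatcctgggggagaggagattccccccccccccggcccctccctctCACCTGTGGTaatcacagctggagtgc
The Itgb7 window held 1 ETS match and the Jaml window 1 TATAAA match and 1 RUNX match. The TATAAA letters in Jaml lay at bases -100 to -95 before the start, and their use as a TATA box was not tested. The Itgb5 window held 3 GC boxes and 1 E-box, and in Krt79 a RUNX match and an E-box overlapped. Of all 32851 windows of this length, 12.4% held the TATA box, 32.7% the GC box, 14.0% the RUNX core, 29.5% the ETS motif, 17.2% the E-box and 13.7% the AP-2 motif, so that none of these matches is rare. The share of G and C was 56% for Itgb7, 40.8% for Jaml, 65.2% for Itgb5 and 64% for Krt79, beside a median of 52.4% for all windows.

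The integrins of leukocytes were lower in high gainers as far as they were called. Of 6 such subunits, 5 were measured, 2 were called lower and the median log2 ratio was -0.53. Itgal is the alpha chain of LFA-1, with which lymphocytes hold on to endothelium and to antigen-presenting cells. Its signal was 3687, 3357 and 2981 on the high-gainer arrays and 8086, 8179 and 9127 on the low-gainer arrays. Every low-gainer array stood above every high-gainer array, and the level in low gainers was 2.54-fold that in high gainers (log2 ratio -1.34, SE 0.11, limma adjusted p = 0.000425). Its probe was dim. Itgb7, the beta chain of the gut-homing receptor and of the receptor with which intraepithelial lymphocytes bind E-cadherin, read 20434, 18813 and 21627 in high gainers and 45561, 43063 and 46952 in low gainers. The groups did not overlap and the level in low gainers was 2.23-fold that in high gainers (log2 ratio -1.16, SE 0.10, limma adjusted p = 0.000425). Both calls held in each of the 6 fits that omitted an array.

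The partners of these chains were not called. Itgb2, the beta chain of LFA-1 and of the myeloid receptor Mac-1, read 18462, 19415 and 18555 in high gainers and 28537, 29090 and 24278 in low gainers. Its groups did not overlap, with a log2 ratio of -0.53 and a limma adjusted p of 0.0142 that missed the threshold. Itgae, the alpha chain that pairs with Itgb7 on intraepithelial lymphocytes, had a log2 ratio of -0.43 (limma adjusted p = 0.119), and Itgam, the alpha chain of Mac-1, had 0.18 (limma adjusted p = 0.399). Itga4, the alpha chain of the gut-homing receptor, was blank on all 6 arrays. No leukocyte alpha chain other than Itgal was thus called, and Itgam was the leukocyte subunit with a value above 0.

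Jaml, an adhesion molecule of leukocytes named for the junctional adhesion molecules, was placed with the tight junction proteins by its symbol. It read 5852, 6343 and 7403 in high gainers and 14582, 15862 and 14302 in low gainers. The level in low gainers was 2.29-fold that in high gainers, without overlap (log2 ratio -1.20, SE 0.12, limma adjusted p = 0.000697), and the call held in each of the 6 fits that omitted an array.

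Markers of lymphocytes were lower in the same pool. All 6 measured genes of a list of 9 B lymphocyte markers were called lower in high gainers, with a median log2 ratio of -1.66 and a summed signal of 89670 to 94762 in high gainers against 307947 to 323904 in low gainers. Of 7 measured genes of a list of 12 T lymphocyte markers, 5 were called lower, with a median of -1.65 and a summed signal of 81431 to 95960 against 247683 to 284132. A named probe existed for 7 of the 9 B lymphocyte markers and for 8 of the 12 T lymphocyte markers. Of those with a probe, Blk was blank on all high-gainer arrays, and none was blank on all 6 arrays. Of 5 measured macrophage markers 1, Marco, was called lower and the median was 0.01. The part of these cells in the ratios of Itgal, Itgb7 and Jaml was not tested, and in RNA from whole tissue fewer cells of a type and less RNA per cell cannot be told apart.

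**Figure D2:**
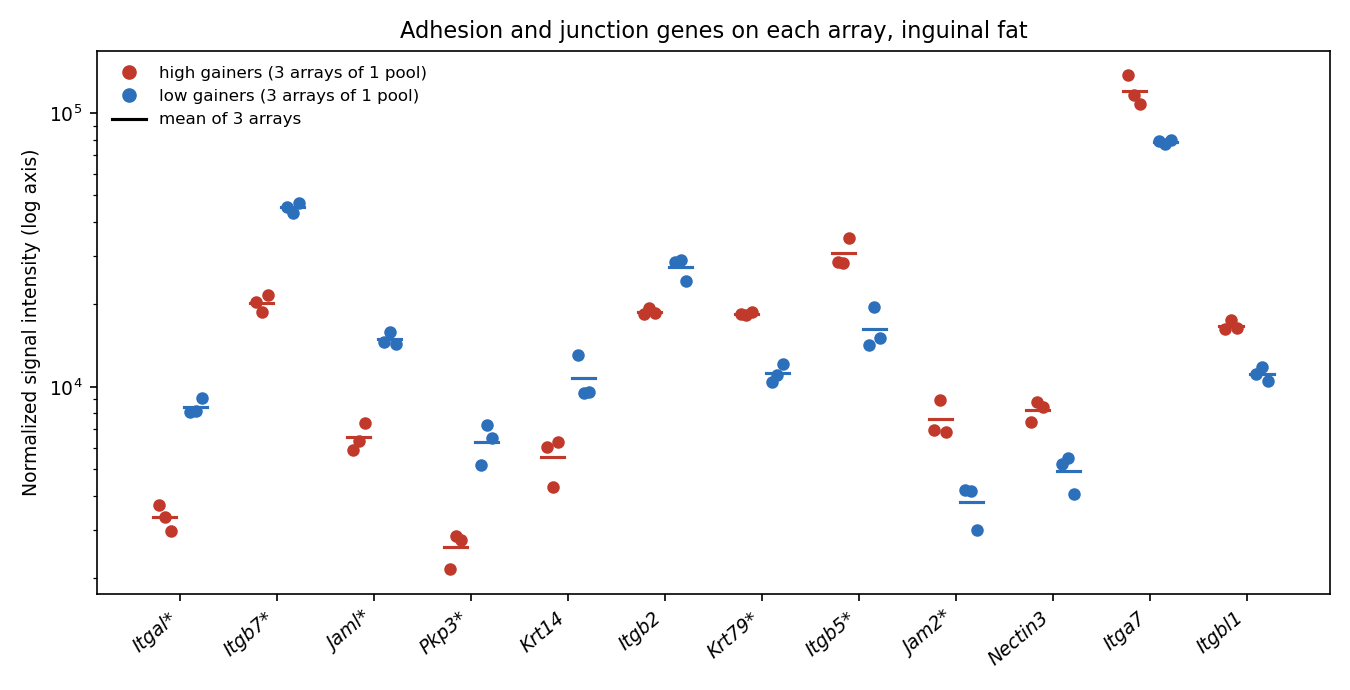
Normalized signal intensity (log axis) of 12 adhesion, junction and keratin genes on each array, with 3 high-gainer arrays in red and 3 low-gainer arrays in blue and a bar at each mean; an asterisk marks the 7 called genes. The genes were picked with their values known, so that the absence of overlap for all 12 is no result. Among the 48 measured genes, 20 did not overlap with high gainers above and 7 with low gainers above, beside 22% and 15.9% of all named genes. Probes of different genes are not on a common scale.

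The measured integrin subunits outside the leukocyte group all had log2 ratios above 0, and 1 was called. The 6 measured of 13 such subunits had log2 ratios from 0.14 to 0.93, with a median of 0.39 and 5 at an unadjusted p under 0.05. Subunits with blanks were not tested. Itga8 read 1700, 1172 and 1248 in high gainers and 1846 on 1 low-gainer array. Itga11 read 2168 and 1801 on 2 high-gainer arrays and 1418 on 1 low-gainer array, and Itga5 read 1422 on 1 high-gainer array. Itgb5, a beta chain that pairs with the alpha-v chain to bind vitronectin, read 28613, 28440 and 35071 in high gainers and 14166, 19487 and 15103 in low gainers. High gainers stood above low gainers on every array, 1.90-fold (log2 ratio 0.93, SE 0.15, limma adjusted p = 0.00695). This call held in 1 of 6 fits with an array left out, the one without low gainers replicate 2, and the adjusted p otherwise reached 0.0291, with log2 ratios of 0.83 to 1.06.

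The 3 measured chains of laminin receptors, which attach cells to basement membrane, lay on the same side. Itga7, the laminin receptor chain of skeletal and smooth muscle, read 137245, 116879 and 108222 in high gainers and 78752, 77192 and 79710 in low gainers. Its groups did not overlap (log2 ratio 0.61, SE 0.11) but the limma adjusted p of 0.0107 missed the threshold. By the methods' test unadjusted, Itga7 was the 1 of these 3 chains called higher. Itga3 had a log2 ratio of 0.42 (limma adjusted p = 0.103) and Itga6 of 0.36 (limma adjusted p = 0.0887). The fourth chain of this kind, Itgb4 of the hemidesmosome, had a value on 2 high-gainer arrays, 1559 and 1156, and on no low-gainer array. Itgb1, the beta chain shared by most matrix receptors, was bright, with a mean of 274935 in high gainers and 234376 in low gainers (log2 ratio 0.23, limma adjusted p = 0.128).

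Muscle markers did not move as one. Of 8 measured markers of smooth muscle and pericytes none was called, with 6 higher at an unadjusted p under 0.05 in limma, 1 called higher by the methods' test, a median log2 ratio of 0.42 and a summed signal of 293607 to 317384 in high gainers against 222695 to 232246 in low gainers. Of 9 measured skeletal muscle markers 8 were called lower in high gainers, with a median of -0.85 and a summed signal of 1.13e+06 to 1.20e+06 against 2.09e+06 to 2.31e+06. Their part in the values of Itga7 and Itgb5 was not tested.

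Other adhesion and junction genes were described from a list of 51, of which 31 had a named probe and 23 were measured. Many of their proteins work on the inside of the membrane with integrins and junctions. Esam, a membrane protein, was also among the 23 (log2 ratio 0.54, limma adjusted p = 0.0213). It is in the list of endothelium markers below as well, and enters the counts of both lists. The signals of Fermt3, the kindlin of blood cells that activates integrins, were 7883, 6879 and 7755 in high gainers and 14881, 14615 and 16022 in low gainers. The level in low gainers was 2.02-fold that in high gainers (log2 ratio -1.02, SE 0.10, limma adjusted p = 0.000735), without overlap and in 6 of 6 fits with an array left out. Parvg, the parvin of hematopoietic cells, was also called lower in high gainers (log2 ratio -1.11, SE 0.16, limma adjusted p = 0.00424), with a dim probe and in 2 of 6 such fits, those that omitted replicate 3 of the high gainers or replicate 1 of the low gainers. The widely expressed relatives of these proteins had values of the other sign. Fermt2 had a log2 ratio of 0.47 (limma adjusted p = 0.0352) and Parva of 0.51 (limma adjusted p = 0.0140), neither called. Lims2, an adaptor of the complex that parvins form with integrin-linked kinase, was called higher (log2 ratio 0.67, SE 0.10, limma adjusted p = 0.00402), a call that held in 1 of 6 fits with an array left out, the one without high gainers replicate 3.

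In the remainder of this list, Mpdz and Magi1, scaffolds with PDZ domains at tight junctions, were called higher in high gainers. Mpdz read 51632, 50566 and 48455 in high gainers and 29144, 26875 and 24268 in low gainers (log2 ratio 0.91, SE 0.10, limma adjusted p = 0.00128), a call that held in 5 of the 6 fits that omitted an array, all but the one without high gainers replicate 1. Magi1 had a log2 ratio of 0.72 (limma adjusted p = 0.00282) and was called in 1 of 6, the fit without low gainers replicate 1. Of the 23 measured genes 3 were thus called higher and 2 lower, with limma placing 10 above and 5 below 0 at an unadjusted p under 0.05 and a median log2 ratio of 0.18. Of all named genes tested, 2.91% were called higher and 4.04% lower. Talin and vinculin, which tie integrins and cadherins to actin, were not called (Tln1 -0.14, Vcl 0.29), and neither was Ctnnb1, the beta-catenin that links cadherins to alpha-catenin and also carries Wnt signals (0.05). Other genes of the list were partly blank. Marveld2 read 3474, 3016 and 3301 on the low-gainer arrays, was blank on the high-gainer arrays and so was not tested. Marveld3 and Perp also had values on low-gainer arrays only, 1 and 2 of them. Cgnl1 had values on 2 high-gainer and 3 low-gainer arrays, and Pard3 on 3 and 2.

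**Figure D3:**
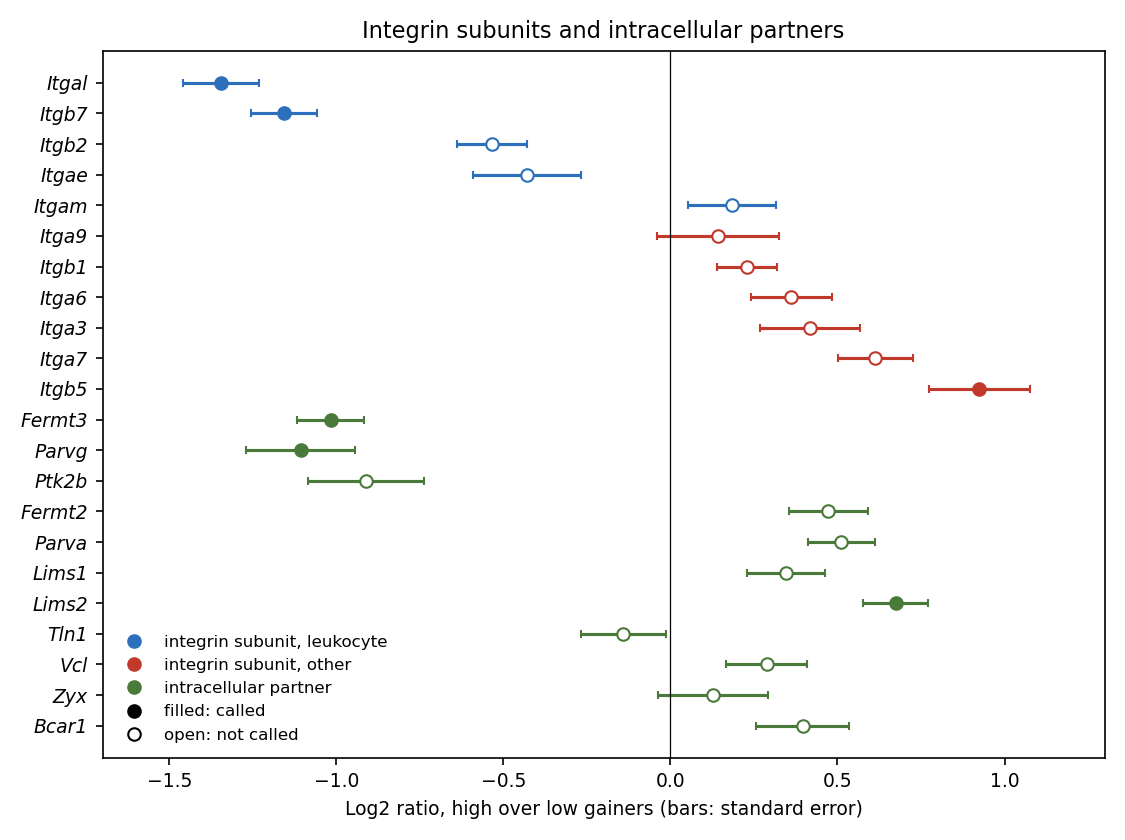
Log2 ratio of high over low gainers (horizontal axis, bars are the standard error of limma) for the 11 measured integrin subunits and for 11 measured proteins that act with them inside the cell. Filled points are called. Itgal, Itgb7, Fermt3 and Parvg lie below -1, and Itgb5, Lims2 and Itga7, which was not called, lie above 0.6.

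Itgbl1, a secreted protein with repeats like those of integrin beta chains, was chosen for mention after its values were seen. It read 16211, 17504 and 16349 in high gainers and 11135, 11853 and 10467 in low gainers. Its limma adjusted p was 0.00696, but its ratio of 1.497 lay just under the fold threshold of 1.5, so that it was not called. Itgb1bp1, which binds the tail of the beta-1 chain, had a log2 ratio of 0.16 (limma adjusted p = 0.394), and Itgb3bp, a centromere protein despite its symbol, had 0.12 (limma adjusted p = 0.531).

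At tight junctions, Jam2, a junctional adhesion molecule of endothelium, was over-expressed in high gainers. It read 6968, 8956 and 6861 in high gainers and 4199, 4151 and 2988 in low gainers. The groups did not overlap, and high gainers were 2.02-fold above low gainers (log2 ratio 1.01, SE 0.17, limma adjusted p = 0.00789). The probe was dim, and the call was lost without any 1 of the 6 arrays, at adjusted p up to 0.0268 and log2 ratios of 0.85 to 1.10. Of its relatives, Jam3 had a log2 ratio of -0.17 (limma adjusted p = 0.550) and F11r, the junctional adhesion molecule of epithelium, endothelium and platelets, had 0.12 (limma adjusted p = 0.411). Tjp1, the scaffold ZO-1, had 0.24 (limma adjusted p = 0.241). The family median of 0.12 therefore stood between a called member on either side. Tjp3 read 1547 on 1 high-gainer array and 4020 and 3022 on 2 low-gainer arrays, and was not tested.

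None of the 10 measured markers of endothelium was called, with 5 higher at an unadjusted p under 0.05 in limma, 0 called by the methods' test and a median log2 ratio of 0.27. Their summed signal was 779438 to 839623 in high gainers and 669160 to 698297 in low gainers. Their part in the value of Jam2 was not tested. Among markers of blood platelets, which carry F11r, 1 of 3 measured was called higher, Ppbp on a dim probe, with a median of 0.39. Gp9 had a log2 ratio of -0.50 (limma adjusted p = 0.227).

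Claudins, the strands of tight junctions, were mostly without values. Of 16 claudins 2 were measured, 7 had values on 1 to 5 arrays and 7 on none. Cldn10 had a log2 ratio of 0.10 (limma adjusted p = 0.536) on its brightest probe and 0.21 (limma adjusted p = 0.296) on another, and Cldn16 had 0.46 (limma adjusted p = 0.0655). Cldn7 and Cldn9 had values on 2 low-gainer arrays each and on no high-gainer array, Cldn7 at 1023 and 1395 and Cldn9 at 917 and 1115.

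Nectin3, which joins neighboring cells before cadherins gather, was the only nectin measured on all 6 arrays. It read 7446, 8799 and 8437 in high gainers and 5205, 5478 and 4074 in low gainers, without overlap. Its log2 ratio of 0.75 (SE 0.14) was not called, at a limma adjusted p of 0.0111. Nectin2 had values on all high-gainer arrays, 3733, 3096 and 3737, and on 1 low-gainer array, 3414. Nectin1 read 848 and 878 on 2 high-gainer arrays and 1287 and 1727 on 2 low-gainer arrays. Nectin4 had a value on 1 high-gainer array only, 1055.

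Genes with Cdh symbols, most of them classical cadherins, were seldom measured. Of 14, only Cdh2 (N-cadherin, found in nerve, muscle and mesenchyme) had a value on all 6 arrays, with a log2 ratio of -0.35 (limma adjusted p = 0.163) on its brighter probe and -0.53 (limma adjusted p = 0.105) on the other. Cdh11, a cadherin of mesenchymal cells, had values of 1827 and 1854 on 2 high-gainer arrays and of 3281, 3677 and 2753 on the low-gainer arrays. The measured values of Cdh11 did not overlap, but it was blank on 1 high-gainer array and was not tested.

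Protocadherins formed the family with the most members, 40, and all 10 that were measured had log2 ratios above 0. They ranged from 0.13 to 0.71 with a median of 0.37, beside 0.04 for all named genes. None was called. In limma 6 lay above 0 and 0 lay below it at an unadjusted p under 0.05, and the methods' test called 0. The arrays of 5 did not overlap, beside 22% of all named genes with high gainers above. Protocadherins with blanks went both ways. Pcdha5 read 831 and 688 on 2 high-gainer arrays and 1023, 1078 and 1519 on the low-gainer arrays. Pcdh18 read 1612 and 2830 against 1145, 1495 and 806. Of the 10, 8 belong to the clustered protocadherins, whose alpha, beta and gamma isoforms are chosen from arrays of similar exons and give neurons their identity, and 6 of the 10 were dim. Similar isoforms could share probe signal, and probe sequences were not used here. Pcdha8 had a log2 ratio of 0.71 (SE 0.17, limma adjusted p = 0.0297), from 1857 in high gainers against 1150 in low gainers on average. Its probe was dim, and with an offset added before log2 the ratio was 0.24 (limma adjusted p = 0.0898). Pcdh7, a protocadherin outside the clusters, had 0.69 (SE 0.14, limma adjusted p = 0.0157) from means of 9460 and 5785. Pcdhb22 had 0.37 (limma adjusted p = 0.0371), and the lowest, Pcdhb9, had 0.13 (limma adjusted p = 0.687). Of 3 measured markers of Schwann cells and nerve none was called, with 1 higher at an unadjusted p under 0.05 in limma, 0 called by the methods' test and a median of 0.27. The part of nerve in these values was not tested.

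Alpha-catenins, which couple cadherins to actin, were not called. For Ctnna1 the high-gainer arrays averaged 33581 ± 794 (SD, n = 3) and the low-gainer arrays 25373 ± 1598 (SD, n = 3), without overlap (log2 ratio 0.41, limma adjusted p = 0.0254). Ctnnal1, a relative known as alpha-catulin, was dim and had a log2 ratio of 0.58 (limma adjusted p = 0.178), which ranged from 0.28 to 0.86 when single low-gainer arrays were omitted.

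Connexins, of which 3 of 12 were measured, lay above 0 without a call. Gjc1, the connexin 45 of the conduction system and of smooth muscle, averaged 27988 ± 1631 (SD, n = 3) on the high-gainer arrays and 18874 ± 3308 (SD, n = 3) on the low-gainer arrays (log2 ratio 0.58, limma adjusted p = 0.0295). Gja4, the connexin 37 of arterial endothelium, had a log2 ratio of 0.53 (limma adjusted p = 0.0917), and Gja1, the widespread connexin 43, had 0.30 (limma adjusted p = 0.323), with 0.14 when replicate 1 of the low gainers was omitted and 0.52 when replicate 2 was. Limma gave 2 of the 3 higher at an unadjusted p under 0.05, and the methods' test called 0.

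In the desmosome, Pkp3 was over-expressed in low gainers. Pkp3 is a plakophilin, a plaque protein that links desmosomal cadherins to desmoplakin in simple and stratified epithelia. It read 2159, 2850 and 2755 in high gainers and 5173, 7241 and 6498 in low gainers. The groups did not overlap, and the level in low gainers was 2.43-fold that in high gainers (log2 ratio -1.28, SE 0.16, limma adjusted p = 0.00227). The probe was dim, and the call held in 4 of 6 fits with an array left out and was lost without replicate 1 of the high gainers (limma adjusted p = 0.0103) or replicate 3 of the low gainers (limma adjusted p = 0.0106). Jup, the plakoglobin shared by desmosomes and adherens junctions, had a log2 ratio of 0.35 (limma adjusted p = 0.239), and Pkp4, a relative found mostly at adherens junctions, had 0.21 (limma adjusted p = 0.341). Dsg2, the desmoglein of simple epithelia, had a value on all low-gainer arrays, 2064, 980 and 1205, and on no high-gainer array. Pkp1, Dsc2 and Dsg3 had a value on 1 low-gainer array each.

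Keratins form the filaments that give epithelial cells their strength, in pairs of a type I and a type II chain. Of 29 keratins 7 were measured, with a median log2 ratio of 0.22, and 1 was called. The median fell to 0.10 without replicate 3 of the high gainers or without replicate 1 of the low gainers. Krt79, a type II keratin found in hair follicle canals and sebaceous glands, read 18465, 18239 and 18693 in high gainers and 10438, 11056 and 12152 in low gainers. The groups did not overlap, and high gainers were 1.65-fold above low gainers (log2 ratio 0.72, SE 0.10, limma adjusted p = 0.00279). The call held in 2 of 6 fits with an array left out, those without low gainers replicate 1 or 3, and the adjusted p otherwise reached 0.0185, with log2 ratios of 0.67 to 0.78.

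Krt14, the type I keratin of basal cells in stratified and glandular epithelia, had the opposite sign. It read 6050, 4293 and 6304 in high gainers and 13101, 9505 and 9572 in low gainers, without overlap, but was not called (log2 ratio -0.95, SE 0.19, limma adjusted p = 0.0149, dim). Its type II partner Krt5 read 856 on 1 high-gainer array and 9689, 4689 and 6281 on the low-gainer arrays, and was not tested because the other high-gainer arrays were blank. Krt17, another basal keratin, read 1582 and 1892 on 2 high-gainer arrays and 2281, 2185 and 1518 on the low-gainer arrays, which overlap. Krt19, of ducts and other simple epithelia, had values on 2 low-gainer arrays, 2369 and 2336, and on no high-gainer array.

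The remaining measured keratins were not called. Krt75 and Krt6a, of the companion layer of the hair follicle and of activated keratinocytes, had log2 ratios of 0.52 (limma adjusted p = 0.178) and 0.32 (limma adjusted p = 0.198). Krt42 had 0.22 (limma adjusted p = 0.386), Krt71, of the inner root sheath, had 0.13 (limma adjusted p = 0.715), and Krt20, of intestinal epithelium, had -0.03 (limma adjusted p = 0.932).

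Keratin genes stand in 2 clusters, and their order in the RefSeq genes of GRCm38.p6 was set beside these ratios. The cluster on chromosome 15 holds 26 keratin genes, with 7 measured when the excluded keratins are counted. Of these 7, Krt75, Krt6a, Krt71 and Krt79 had values above 0, and Krt7, Krt8 and Krt18 were called lower in high gainers, so that neighbors of the same cluster stood on opposite sides. Krt79 and Krt8 are separated in it by 1 gene, Krt78. The cluster on chromosome 11 holds 27, with 3 measured.

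**Figure D4:**
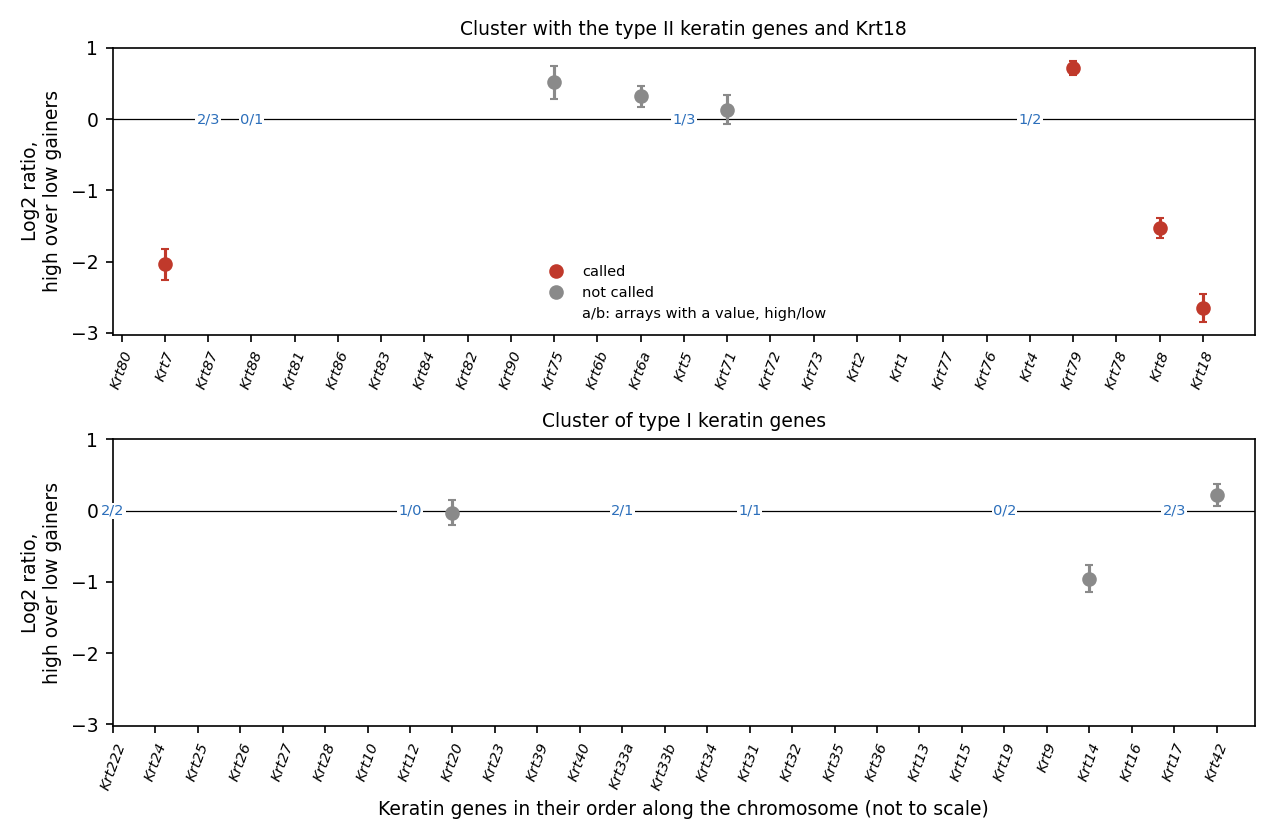
Log2 ratio of high over low gainers (vertical axis, bars are the standard error of limma) of keratin genes in their order along chromosome 15 (top) and chromosome 11 (bottom), not to scale, with called genes in red; Krt7, Krt8 and Krt18 are excluded keratins shown for comparison. Blue labels give the number of high-gainer and low-gainer arrays with a value for genes not measured on all 6, and genes without a mark had no value or no named probe.

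Markers of glandular epithelium were in part lower in the pool in which Pkp3, Krt14 and Krt5 read low. In a list of 16 such markers 12 had a named probe and 8 were measured. Of these 8, 4 were called lower in high gainers (Cdh1, Krt7, Krt8 and Krt18) and 1 higher (Pkp2), with a median log2 ratio of -0.90. Epcam, which defines epithelium, read 1001 on 1 high-gainer array and 14220, 12152 and 11672 on the low-gainer arrays, and Esrp1 had values on the low-gainer arrays only. The summed signal of the list was 122515 to 159172 in high gainers and 153570 to 178294 in low gainers, which overlap, and Cldn3 and Cldn4 were not called. Cldn4 was the largest part of these sums, at 64343 to 93118 in high gainers and 72020 to 102821 in low gainers. Epcam and Esrp1 did not enter the sums, which do not measure epithelial content. The part of these cells in the values of Pkp3, Krt14 and Krt5 was not tested.

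Of 12 markers of epidermis 9 had a named probe, and only 2, Sbsn and Dmkn, were measured on all 6 arrays. Both were called higher in high gainers (log2 ratios 0.64 and 0.66), with a summed signal of 114842 to 127640 in high gainers against 74297 to 83448 in low gainers. Of the other listed genes, Ivl, Sprr1a and Sfn were blank on all 6 arrays, and Lor and Trp63 had a value on 1 high-gainer array each. Krt14 and Krt5, which basal cells of epidermis share with those of glands and which are not in this list, read higher in low gainers where they had values. The part of epidermis in the value of Krt79 was not tested. Of 10 measured stromal markers, 2 (Dpt and Pi16) were called higher and 1 (Thy1) lower, with a median of 0.31, and of 8 measured adipocyte markers 1 (Lep) was called higher, with a median of 0.18.

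Of the 58 genes with values on some arrays, 27 had values on more high-gainer than low-gainer arrays, 23 on more low-gainer arrays and 8 on equal numbers. The high-gainer arrays together held 57604 values over all probes and the low-gainer arrays 57860. Pcdhb7 was the gene with a value on every high-gainer array, 1305, 1233 and 1169, and on no low-gainer array, and Dsg2 was its counterpart with every low-gainer array. The values of both lay below 2848, the 10th percentile of signals on the tested probes, as did those of Itgb4, Cldn7, Cldn9 and Krt19. The share of all genes with values in 1 pool only was not computed, so that these blanks are not read as differences. Another 7 genes had values on all high-gainer arrays and on 1 or 2 low-gainer arrays, and 8 had the reverse. The 52 genes without any value were 12 protocadherins, 12 keratins, 7 claudins, 7 connexins, 6 cadherins, 4 desmosome proteins and 4 integrins. A blank was treated as not measured and no fold was computed from it.

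**Figure D5:**
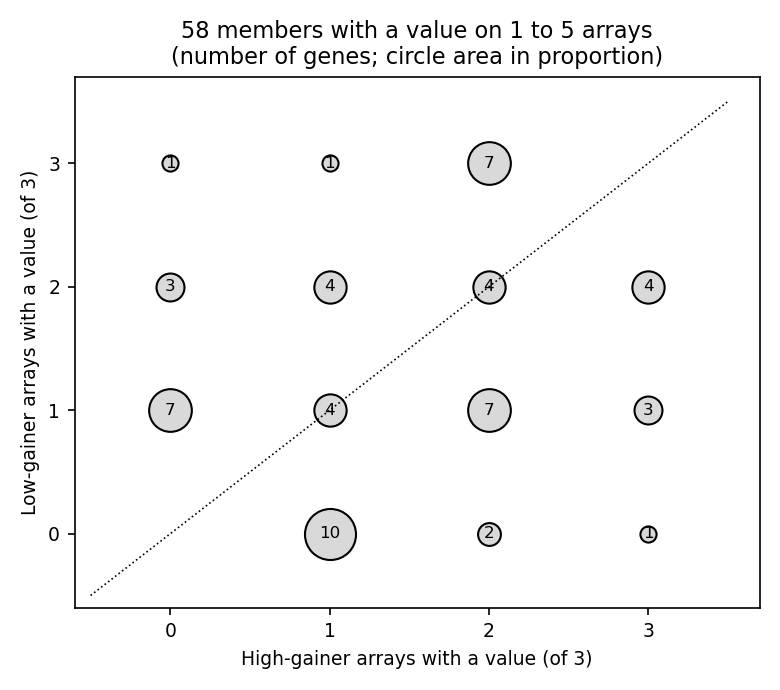
Number of genes, among the 58 with a value on 1 to 5 arrays, by the number of high-gainer arrays (horizontal axis) and low-gainer arrays (vertical axis) with a value; circle area is in proportion to the number. The genes fall on either side of the diagonal, 27 toward high gainers and 23 toward low gainers, with 8 on it.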

How the data were processed

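The authors labeled cRNA from each pool with digoxigenin, hybridized it to one-color Applied Biosystems mouse arrays with chemiluminescent detection and normalized the signals by quantiles. The deposited values are linear intensities; a cell without a value is blank. The methods counted a feature as detected by its signal to noise and a quality flag, and whether blanks are features that failed this is not stated. Of the probes, 14411 had 1 symbol, 247 several and 18354 none, and 14402 symbols were updated by gene ID to RefSeq (GRCm38.p6). The 15821 probes with values on all 6 arrays were log2 transformed and fitted with limma 3.58.1 (lmFit, eBayes) in R 4.3.3, tested first on simulated data. A gene was taken by its brightest probe. Promoter windows matched 27 of the 48 measured genes and 4 of the 7 called. Named genes were all called members, the highest and lowest of each family and those with values on all arrays of 1 pool only; others were chosen after their values were seen. The members and lists were chosen with earlier results of these data known. The methods' test, run as an alternative on the same values, used an unadjusted p of 0.01. Further alternatives were another normalization, centering, filter, offset, threshold, variance model, a block and each array left out. Hypothalamus arrays were not analysed here.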

Additional observations from a re-analysis of the deposited data

How the results depend on the processing

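Of the 7 called genes, Itgb7 was called in 18 of 18 alternative settings, Jaml in 17 of 18, Itgal in 16 of 17, Pkp3 in 14 of 17, Krt79 in 11 of 18, Itgb5 in 9 of 18 and Jam2 in 9 of 17. The 3 calls higher in high gainers became 1 with a 2-fold threshold, 6 with an intensity trend and robust estimation, 5 by the methods' test unadjusted and 0 adjusted (16 at an unadjusted p under 0.05), 1 with values on at least 2 arrays of each pool, and 0 to 1 with an array left out (0 without any high-gainer array, with 14 to 18 at an unadjusted p under 0.05 in limma). The 4 lower calls became 1 by the methods' test adjusted, 2 without dim probes and 3 to 4 with an array left out. Krt14 passed with the trend (limma adjusted p = 0.00386) and with an offset (0.00417), and Nectin3 with the trend (0.00617). In the list of other adhesion and junction genes, the 3 higher calls became 0 with a 2-fold threshold (10 at an unadjusted p under 0.05 in limma) or by the methods' test adjusted (8 at an unadjusted p under 0.05) and 0 to 2 with an array left out, 0 without high gainers replicate 1 (8 at an unadjusted p under 0.05 in limma), and the 2 lower calls became 0 by the methods' test adjusted (5 at an unadjusted p under 0.05), 1 without dim probes and 1 to 2 with an array left out. Deviations of same-numbered arrays correlated at r = 0.04, -0.11 and 0.27, which did not make them pairs. The replicate block left 1 higher call, Jam2, and 1 in the other list. The median log2 ratio of the members was 0.19 with an offset, 0.21 with values on at least 2 arrays of each pool and 0.24 to 0.30 with an array left out. That of protocadherins was 0.22 with an offset, 0.25 with values on at least 2 arrays of each pool and 0.31 without dim probes, and that of integrins 0.23 without dim probes and 0.16 to 0.22 with an array left out. With an array left out, that of keratins was 0.10 to 0.33, of connexins 0.35 to 0.66 and of desmosome proteins 0.11 to 0.30, and, among genes not called, Jup was 0.19 to 0.49 and Cldn10 0.050 to 0.15; with an offset Cldn16 was 0.21 and Ctnnal1 0.19. Without dim probes the median of the other tight junction proteins turned to -0.023, since Jam2 left the set, and Pcdhb9, at -0.090 to 0.26 with an array left out, turned below 0 without high gainers replicate 3, and the cause was not tested. Signal limits the rest: 22 of the 48 measured genes were dim.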
